A study of Mus musculus with 8 samples.

Results

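Marrow retention and lymphoid homing were described through 7 genes: the chemokine receptor genes Cxcr4 and Ccr7, the sphingosine-1-phosphate receptor genes S1pr1 and S1pr4, Cd69, and the adhesion genes Selplg and Cd44. They were chosen by name among the 38215 genes of the deposited tables, with earlier results of these data known, and all 7 were among the 13397 genes with enough reads to be tested. Regulatory T cells (Treg) that express FoxP3 had been sorted from the bone marrow (BM-Treg) or the spleen (SP-Treg) of naïve B6.FoxP3-GFP mice aged 12 weeks, whose FoxP3-expressing cells also carry a green fluorescent protein. There were 4 libraries per tissue, and neither group had been treated. The labels give the genotype as C57Bl/6 and do not say whether a library came from 1 mouse or from several, so that p-values measure the spread between libraries. BM-Treg replicates 1 to 3 were from females and batch 1. BM-Treg replicate 4 was, like all SP-Treg libraries, from males and batch 3. Sex and batch coincide in all 8 libraries and cannot be told apart, and BM-Treg replicate 4 alone separates tissue from both.

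T cells are held in the marrow and led out of it by opposing signals. CXCR4 is the receptor of CXCL12, a chemokine made by marrow stroma that keeps hematopoietic cells there. S1P receptor 1 senses the lipid sphingosine-1-phosphate (S1P), which is high in blood and lymph and low inside tissues, and leads lymphocytes out of tissues, while CD69 binds S1P receptor 1 and takes it off the cell surface. CCR7 guides T cells into lymph nodes and the T cell zone of the spleen. PSGL-1, the product of Selplg, carries sugars that selectins bind and serves cells that roll on marrow vessels, and CD44 binds hyaluronan and marks T cells that have met antigen. All of these proteins are also controlled at the cell surface, which RNA does not show.

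Cxcr4 and Cd44 were the only members with more than 1 listed transcript. For each, a stretch of coding sequence in which named transcripts differ is printed here, as part of what separates their products. The transcripts differ in more than these stretches. The annotated coding sequence has 1077 bases in Cxcr4-201 and 818 in Cxcr4-202, the latter not a whole number of codons. The last exons have 1703 and 803 bases in Cxcr4-201 and Cxcr4-202, and 1791, 205 and 3197 bases in Cd44-203, Cd44-206 and Cd44-207, so that the transcript shares given further on do not rest on the printed stretches alone. Cxcr4-201 and Cxcr4-202 (GENCODE M21, GRCm38, minus strand) begin with the same coding bases, but their first coding exons end at different places, chr1:128592189-128592209 in Cxcr4-201 and chr1:128592195-128592209 in Cxcr4-202. The first 60 coding bases of Cxcr4-201 and the first 54 of Cxcr4-202 are given 5′ to 3′, with the 6 bases that only Cxcr4-201 has in capitals.
Cxcr4-201: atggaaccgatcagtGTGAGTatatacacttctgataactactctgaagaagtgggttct
Cxcr4-202: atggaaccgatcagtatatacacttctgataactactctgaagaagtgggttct
Cd44-203 has 9 coding exons and lacks the exon at chr2:102831330-102831536 (minus strand), which Cd44-206, with 10 coding exons, holds in addition. This exon of 207 bases is also in Cd44-207 and Cd44-201.
Cd44 exon: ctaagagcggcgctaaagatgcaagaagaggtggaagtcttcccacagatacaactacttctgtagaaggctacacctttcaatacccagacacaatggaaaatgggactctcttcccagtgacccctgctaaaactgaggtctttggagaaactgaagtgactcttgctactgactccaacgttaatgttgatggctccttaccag

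Expected counts, the estimated reads per gene, summed to between 12427136 and 21921252 per library, and levels are given as CPM, counts scaled to libraries of one size after TMM normalization. The 6 T cell and Treg markers (Foxp3, Cd3e, Cd4, Il2ra, Ctla4, Ikzf2) summed to 7210 to 8560 CPM in the marrow and 7914 to 8732 CPM in the spleen. Markers of other cells were low and uneven in the spleen. The 6 B cell markers summed to 7.76, 106, 23.2 and 18.0 CPM in SP-Treg replicates 1 to 4, against 11.4 to 14.7 CPM in BM-Treg. The 5 erythroid markers found summed to 1.15 CPM in SP-Treg replicate 1 and to 62.0 to 130 CPM in the other 3 spleen libraries, against 4.98 to 9.49 CPM in BM-Treg. The highest sums of B cell, neutrophil, plasma cell, and CD8 T and NK cell markers were all in SP-Treg replicate 2. SP-Treg replicate 1 stood apart from the other spleen libraries in its erythroid sum, and the values of the 7 genes are also given without it. The 8 neutrophil markers summed to at most 10.4 CPM in the marrow and 18.4 CPM in the spleen, and the 6 monocyte and macrophage markers to at most 19.2 and 28.9 CPM. Sums were lower in BM-Treg, without overlap, for the 3 plasma cell markers (0 to 0.556 against 0.575 to 26.6 CPM) and the 5 CD8 T and NK cell markers (10.9 to 12.9 against 14.0 to 45.3 CPM). Of the tested markers of other cells, Cd8a (log2 fold change -2.99, adjusted p of 0.0293 in edgeR), Ebf1 (-2.42, 0.0332), a B cell gene listed under 2 identifiers, and Pacsin1 (-0.55, 0.0415), from the pDC list, fell in BM-Treg and none rose. The 5 pDC markers summed to 56.4 to 68.7 CPM in the marrow and 45.4 to 77.3 CPM in the spleen, mostly from Ccr9 and Pacsin1, while Siglech, a defining pDC gene, was at most 0.821 CPM. The 8 immediate early genes, which respond within minutes to stimulation or to handling of cells, summed to 812 to 1375 CPM in the marrow and 398 to 733 CPM in the spleen, without overlap. Of the 7 of them tested, Fosb, Junb and Dusp1 rose and Egr1 fell in BM-Treg. The part of other cells or of immediate early genes in the results was not tested.

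Of the 7 genes, 2 differed between BM-Treg and SP-Treg at an adjusted p under 0.05 (edgeR's quasi-likelihood test, adjusted over all genes tested). S1pr4 was upregulated and Ccr7 was downregulated in BM-Treg. Cxcr4, S1pr1, Cd69, Selplg and Cd44 did not pass. Of all genes tested, 8.75% passed, 3.72% as higher and 5.02% as lower in BM-Treg. The 4 libraries of one tissue lay wholly above or below those of the other for 3 of the 7 genes (S1pr4, Selplg and Ccr7), and for 16.2% of all genes. The median log2 fold change was 0.05 over the 7 genes and -0.01 over all genes. In bulk RNA, fewer cells that express a gene and less RNA per cell cannot be told apart.

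**Figure D1:**
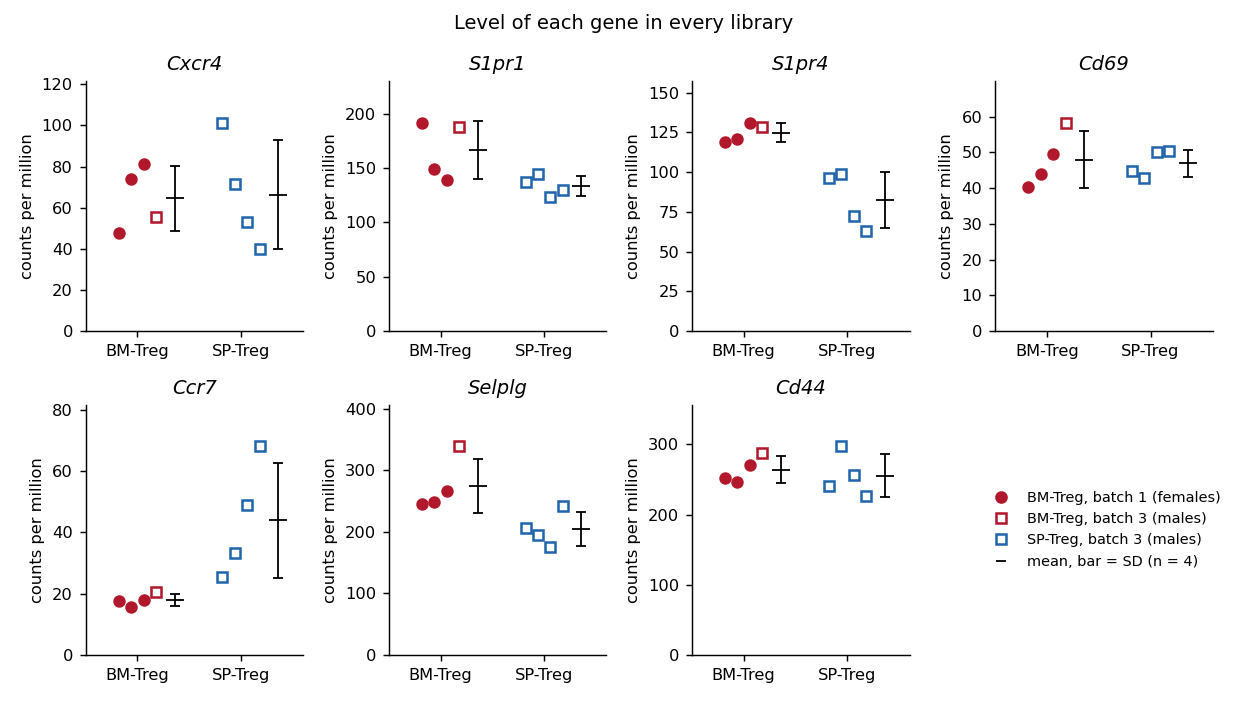
Level of each gene in CPM (vertical axes, from 0) in every BM-Treg and SP-Treg library, with mean and SD beside the points (n = 4). Filled circles are batch 1 females and open squares batch 3 males. All BM-Treg points lie above the SP-Treg points for S1pr4 and Selplg and below them for Ccr7, and the points of both tissues share a range for the other genes.

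Cxcr4 (ENSMUSG00000045382, chr1:128588199-128592293, GRCm38, minus strand) did not differ detectably between the tissues. It stood at 47.6, 73.9, 81.1 and 55.5 CPM in BM-Treg replicates 1 to 4, and at 101, 71.3, 52.9 and 40.0 CPM in SP-Treg replicates 1 to 4. The highest and the lowest of the 8 levels were both in spleen libraries. Means were 64.5 ± 15.6 CPM in the marrow and 66.4 ± 26.6 CPM in the spleen (SD, n = 4 each), the log2 fold change -0.04 (SE 0.29) and an adjusted p of 0.953 in edgeR. The 95% interval of the log2 fold change ran from -0.70 to 0.62, which leaves room for a change in either direction. Its direction turned with the library left out, from 0.26 without SP-Treg replicate 1 (adjusted p of 0.588) to -0.22 without SP-Treg replicate 4.

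Among the S1P receptors, S1pr4 (ENSMUSG00000044199, chr10:81497745-81500132, minus strand), whose product is found mainly on hematopoietic cells, was 1.51-fold higher in BM-Treg. Its levels were 119, 121, 131 and 129 CPM in BM-Treg replicates 1 to 4 and 96.2, 99.1, 72.6 and 63.1 CPM in SP-Treg replicates 1 to 4. The marrow libraries lay close together and all above the spleen libraries, which were spread more widely. The means were 125 ± 5.87 CPM and 82.7 ± 17.7 CPM (SD, n = 4 each) for a log2 fold change of 0.59 (SE 0.13) and an adjusted p of 0.0132 in edgeR. The call held without each library in turn, at adjusted p from 0.0103 to 0.0409, and at a log2 fold change of 0.69 and 0.0103 without SP-Treg replicate 1. With a batch term, set by BM-Treg replicate 4, the log2 fold change was 0.64 and the adjusted p 0.132, and the difference within batch 3 alone was 0.66 with 1 BM-Treg library.

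The promoter of S1pr4 is printed as that of the upregulated member (RefSeq, GRCm38.p6, chr10:81500088-81500387, 250 bases before to 50 after the start, 5′ to 3′ on the minus strand). Capitals mark matches to CACCC on either strand, the short box to which Krüppel-like factors bind, KLF2 being the member of that family known for S1pr1 in T cells.
S1pr4 promoter: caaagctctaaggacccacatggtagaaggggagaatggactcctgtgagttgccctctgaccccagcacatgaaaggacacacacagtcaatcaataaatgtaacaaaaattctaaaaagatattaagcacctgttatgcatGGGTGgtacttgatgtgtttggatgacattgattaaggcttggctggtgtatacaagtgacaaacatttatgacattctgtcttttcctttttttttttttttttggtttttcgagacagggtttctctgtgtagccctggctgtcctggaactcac
It holds 1 match, and 57.5% of the 32851 RefSeq promoters of this length hold at least 1. Of the members that were not called, the promoter of Cxcr4 also holds 1 and that of Cd44 holds 0. Klf2 itself, named here after its values had been seen, had a mean of 30.3 ± 6.17 CPM in the marrow and 25.8 ± 5.02 CPM in the spleen (SD, n = 4 each), with an adjusted p of 0.454 in edgeR.

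S1pr1 (ENSMUSG00000045092, chr3:115710433-115715055, minus strand), the main egress receptor of T cells, stood at 192, 149, 139 and 188 CPM in BM-Treg replicates 1 to 4 and at 137, 144, 123 and 130 CPM in SP-Treg replicates 1 to 4. Only BM-Treg replicate 3 fell within the range of the spleen. The means were 167 ± 26.6 CPM and 134 ± 9.24 CPM (SD, n = 4 each) for a log2 fold change of 0.32 (SE 0.12) and an adjusted p of 0.105 in edgeR, which did not pass. The 95% interval, not adjusted for the number of genes, ran from 0.07 to 0.57, and the fold change was positive in all 17 other fits, none of which called it (0.35 and an adjusted p of 0.115 without SP-Treg replicate 1). Of the other S1P receptor genes, S1pr2 stood at 13.9 ± 3.69 and 15.4 ± 1.37 CPM (SD, n = 4 each; adjusted p of 0.655 in edgeR), while S1pr3 and S1pr5 had at most 0.418 and 1.27 CPM in any library and were not tested.

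Cd69 (ENSMUSG00000030156, chr6:129267324-129275369, minus strand) had nearly the same level in both tissues. It stood at 40.2, 44.0, 49.5 and 58.3 CPM in BM-Treg replicates 1 to 4 and at 44.7, 43.0, 50 and 50.3 CPM in SP-Treg replicates 1 to 4. The spleen libraries lay inside the range of the marrow libraries. The means were 48.0 ± 7.85 CPM and 47.0 ± 3.74 CPM (SD, n = 4 each) for a log2 fold change of 0.03 (SE 0.13, 95% interval from -0.24 to 0.30) and an adjusted p of 0.922 in edgeR. The value was 0.02 without SP-Treg replicate 1 (adjusted p of 0.949) and 0.31 within batch 3 alone, since BM-Treg replicate 4 had the highest level of all.

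Ccr7 (ENSMUSG00000037944, chr11:99144196-99155077, minus strand), the lymph node homing receptor, was 2.46-fold lower in BM-Treg, the largest difference among the 7 genes. Its levels were 17.7, 15.5, 17.9 and 20.5 CPM in BM-Treg replicates 1 to 4 and 25.4, 33.3, 48.9 and 68.0 CPM in SP-Treg replicates 1 to 4. Every marrow library lay below every spleen library, and the spleen libraries differed among themselves more than the marrow ones. The means were 17.9 ± 2.06 CPM and 43.9 ± 18.8 CPM (SD, n = 4 each) for a log2 fold change of -1.30 (SE 0.27) and an adjusted p of 0.0163 in edgeR. The summed markers of plasma cells and of CD8 T and NK cells were likewise lower in every marrow library than in every spleen library. Like Ccr7 they were lowest among the spleen libraries in SP-Treg replicate 1. From SP-Treg replicate 2 to 4 both sums fell, while Ccr7 rose. They were 45.3, 25.1 and 19.1 CPM for CD8 T and NK cells, and 26.6, 9.70 and 7.26 CPM for plasma cells. The part of these cells in the Ccr7 difference was not tested. Without SP-Treg replicate 1 the log2 fold change was -1.47 and the adjusted p 0.0015. The call was lost without BM-Treg replicate 1, 2 or 3, at adjusted p of 0.0612, 0.0582 and 0.0529, with no filter on low counts, at 0.0517, and with batch as a term, at a log2 fold change of -1.10 and an adjusted p of 0.277. Within batch 3 alone the difference was -0.99 with 1 BM-Treg library.

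Selplg (ENSMUSG00000048163, chr5:113817798-113830501, minus strand) stood at 246, 249, 267 and 339 CPM in BM-Treg replicates 1 to 4 and at 206, 195, 175 and 242 CPM in SP-Treg replicates 1 to 4. All marrow libraries lay above all spleen libraries, with BM-Treg replicate 4 the highest. The means were 275 ± 43.7 CPM and 205 ± 28.2 CPM (SD, n = 4 each) for a log2 fold change of 0.43 (SE 0.13) and an adjusted p of 0.0507 in edgeR, just short of the threshold. Of 17 other fits, 9 called it higher, among them that with batch as a term at a log2 fold change of 0.73 and an adjusted p of 0.0439, while BM-Treg replicate 4 left out gave a log2 fold change of 0.31 and an adjusted p of 0.138. Without SP-Treg replicate 1 these were 0.45 and 0.0767, and without SP-Treg replicate 2 they were 0.40 and 0.122.

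Cd44 (ENSMUSG00000005087, chr2:102811141-102901665, minus strand) stood at 253, 246, 271 and 288 CPM in BM-Treg replicates 1 to 4 and at 241, 297, 257 and 226 CPM in SP-Treg replicates 1 to 4. The marrow levels fell within the spread of the spleen levels. The means were 264 ± 18.7 CPM and 255 ± 30.7 CPM (SD, n = 4 each) for a log2 fold change of 0.05 (SE 0.11, 95% interval from -0.18 to 0.28) and an adjusted p of 0.822 in edgeR. Without SP-Treg replicate 1 they were 0.04 and 0.879.

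**Figure D2:**
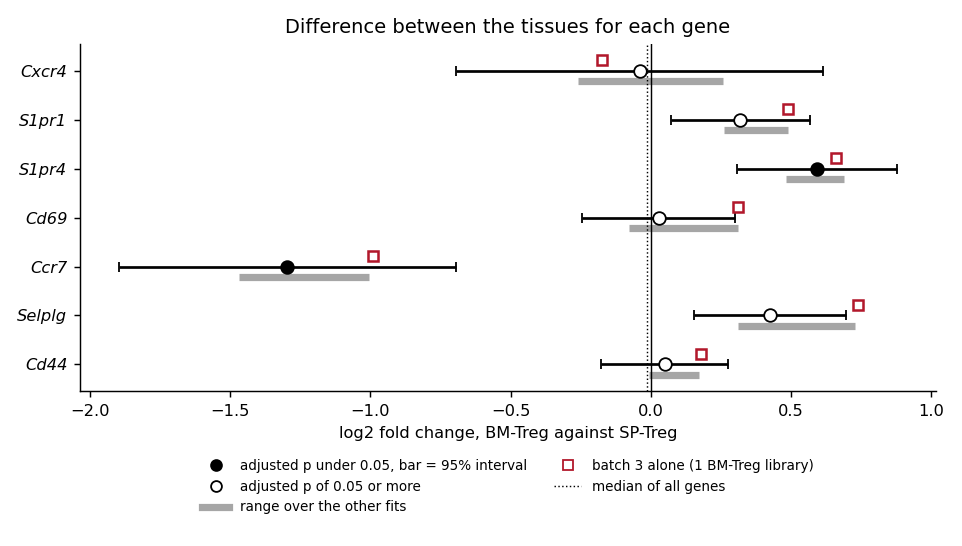
Log2 fold change of each gene, BM-Treg against SP-Treg (horizontal axis), with its 95% interval (black), the range over the 17 other fits (grey) and the value within batch 3 alone (red squares, 1 BM-Treg library). The dotted line is the median of all genes. Filled points, those of S1pr4 at 0.59 and Ccr7 at -1.30, had an adjusted p under 0.05.

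Levels of different genes were compared on FPKM, which divides by transcript length. In BM-Treg, Selplg and Cd44 were highest, with means of 111 and 108 FPKM and overlapping ranges, followed by S1pr1, S1pr4 and Cxcr4 at 57.8, 55.3 and 52.6 FPKM, whose ranges overlapped from each to the next. Cd69 came below these at 31.7 FPKM and Ccr7 last at 9.62 FPKM, each with a range apart from its neighbours. In SP-Treg, Cd44 and Selplg were again highest at 97.98 and 79.3 FPKM, and then came Cxcr4 at 53.6, S1pr1 at 44.3, S1pr4 at 35.2, Cd69 at 29.7 and Ccr7 at 22.3 FPKM. No gene in the spleen had a range apart from the next in order, and Ccr7 exceeded Cd69 in SP-Treg replicate 4.

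**Figure D3:**
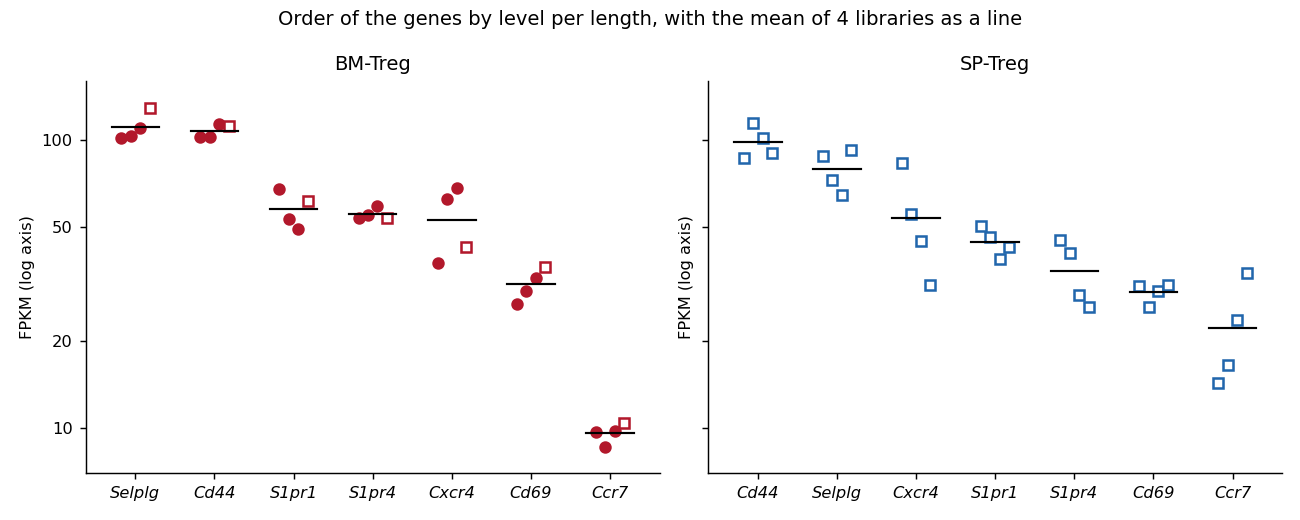
FPKM of the 7 genes (vertical axis, log scale) in each tissue, in order of their means (lines, n = 4), with a point per library and symbols as in the plot of CPM by library. Ccr7 is last in both tissues, at 8.58 to 10.4 FPKM in BM-Treg and 14.4 to 34.5 FPKM in SP-Treg.

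Ratios within a library do not depend on the scaling between libraries, and 3 were compared. The log2 ratio of Cxcr4 to S1pr1, of the retention to the egress receptor, was -2.01, -1.01, -0.78 and -1.76 in BM-Treg replicates 1 to 4 and -0.44, -1.01, -1.21 and -1.69 in SP-Treg replicates 1 to 4. The values of the tissues overlapped, with S1pr1 above Cxcr4 in all 8 libraries on CPM, which are not divided by length (means -1.39 ± 0.59 and -1.09 ± 0.52, SD, n = 4 each; exact two-sided permutation p of 0.486). On FPKM, Cxcr4 was above S1pr1 in BM-Treg replicates 2 and 3 and SP-Treg replicates 1 to 3, and below it in the other libraries. The log2 ratio of Cd69 to S1pr1 was -1.80 ± 0.32 in BM-Treg and -1.51 ± 0.21 in SP-Treg (SD, n = 4 each; exact two-sided permutation p of 0.171). The log2 ratio of Cd44, a gene of experienced T cells, to Ccr7 was 3.83, 3.98, 3.90 and 3.80 in BM-Treg replicates 1 to 4 and 3.24, 3.15, 2.39 and 1.73 in SP-Treg replicates 1 to 4. All marrow values were above all spleen values, by 1.25 on average (exact two-sided permutation p of 0.0286). This is the smallest p that 4 libraries against 4 can give, and over the 3 ratios it became 0.0857, which did not pass. As Cd44 had a log2 fold change of 0.05 and Ccr7 of -1.30, this ratio mostly restates the Ccr7 difference and is not a separate result.

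Transcript shares of Cxcr4 and Cd44 did not separate the tissues. The shares are estimates, and those of overlapping transcripts that also differ in their last exon are uncertain. Cxcr4-201 made up 71.5, 64.8, 63.5 and 66.3% of the gene's expected counts in BM-Treg replicates 1 to 4 and 70.7, 62.0, 48.1 and 63.0% in SP-Treg replicates 1 to 4, the rest being Cxcr4-202. SP-Treg replicate 3 had the lowest share and the others overlapped, with means of 66.5 ± 3.51% and 60.9 ± 9.42% (SD, n = 4 each; exact two-sided permutation p of 0.314, 0.571 after adjustment over 5 transcripts). Without SP-Treg replicate 1, all marrow shares of Cxcr4-201 lay above those of the spleen, as did 7.74% of transcripts in either direction over all genes in that setting. With all libraries, 5.09% of the 13186 transcripts tested had shares that did not overlap, against none of the 5 of Cxcr4 and Cd44, at exact p from 0.314 to 0.943.

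Of 9 listed Cd44 transcripts, 3 were at 0 in every library. Cd44-203, without the printed exon, made up 46.4 ± 5.27% in BM-Treg and 46.1 ± 6.41% in SP-Treg (SD, n = 4 each), Cd44-206 16.7 ± 2.44% and 16.3 ± 7.70%, and Cd44-207 25.4 ± 1.21% and 27.2 ± 3.09%. Cd44-206 was at 4.91% in SP-Treg replicate 1 and at 14.7 to 22.0% in the other 7 libraries. The 7 listed transcripts that hold the printed exon together took 47.4 ± 5.20% in BM-Treg and 47.8 ± 4.90% in SP-Treg (SD, n = 4 each), a sum added after the shares had been seen.

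**Figure D4:**
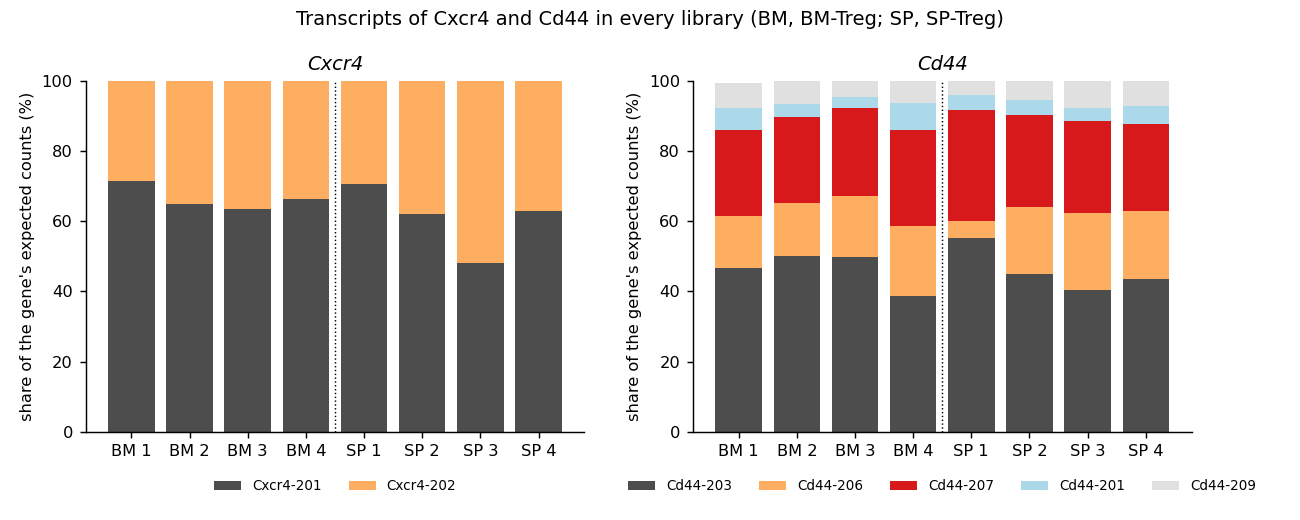
Share of each transcript in the expected counts of Cxcr4 (left) and Cd44 (right) in percent, stacked, for BM-Treg replicates 1 to 4 and SP-Treg replicates 1 to 4. Cd44-202, above 0 only in BM-Treg replicate 1 at 0.448%, is not drawn. Cxcr4-201 ranges from 48.1% in SP-Treg replicate 3 to 71.5% in BM-Treg replicate 1.

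Beyond the 7 genes, 102 genes of the same pathways were listed, of which 89 were tested. Of these, 6 rose and 3 fell in BM-Treg, which is 10.1% against the 8.75% of all genes. Without SP-Treg replicate 1, 3 rose and 3 fell, while of all 13786 genes tested in that fit 405 rose and 545 fell. The genes that rose were mostly in signalling from Gi-coupled receptors to cell movement, of which 5 of 24 rose, none fell and 19 did not pass. These were Gng2 (log2 fold change 0.65) and Gnb2 (0.46), subunits of G proteins, Fermt3 (0.55), which encodes the integrin activator kindlin-3, Rac2 (0.41), a GTPase of blood cells, and Rhoh. The median of this list was 0.17, against -0.01 over all genes. Gng2 had 33.9 ± 3.04 CPM in the spleen and rose to 53.4 ± 4.23 CPM in the marrow (SD, n = 4 each; adjusted p of 0.0028 in edgeR) and Fermt3 rose from 90.4 ± 7.61 to 132 ± 11.4 CPM (adjusted p of 0.0044 in edgeR). Both were called in all 17 other fits, including that with batch as a term, at adjusted p of 0.0376 and 0.0412. Gnb2, Rac2 and Rhoh were each called in only 2 of the 8 leave-one-out fits, those that drop 1 library, and not with batch as a term. The most abundant genes of the list that did not pass were Coro1a, Dock2 and Rac1, which organize actin at the leading edge, at log2 fold changes of 0.38, 0.14 and 0.06.

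Of genes that switch off or recycle chemokine receptors or act on CXCL12, 1 of 13 tested passed. Arrb1, which encodes beta-arrestin 1, rose from 62.4 ± 14.7 to 87.5 ± 5.24 CPM (SD, n = 4 each; log2 fold change 0.48, adjusted p of 0.0479 in edgeR), a call found in 1 of 8 leave-one-out fits and not with batch as a term, at an adjusted p of 0.266. The receptor kinase gene Grk2, Cd164 and the ubiquitin ligase gene Itch were at log2 fold changes of 0.08, 0.09 and -0.01. Cxcl12 was at most 0.0926 CPM in any library and was not tested.

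Of genes that make, break down or carry S1P and its precursors, 1 of 13 tested passed. Sgpp1, an S1P phosphatase, fell from 135 ± 13.1 CPM in the spleen to 102 ± 3.96 CPM in the marrow (SD, n = 4 each; log2 fold change -0.41, adjusted p of 0.0164 in edgeR), without overlap. With batch as a term it was -0.45 at an adjusted p of 0.163, and without BM-Treg replicate 2 it did not pass. Sgpp1 was called in 13 of 17 other fits. The ceramide synthase genes Cers2, Cers5 and Cers4 were at log2 fold changes of 0.14, 0.01 and 0.05.

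None of the 19 tested genes for the sugars that selectins bind passed at an adjusted p under 0.05 in edgeR. Chst2, St3gal1 and Galnt1, the most abundant, were at log2 fold changes of -0.04, 0.07 and 0.05. Fut7, the fucosyltransferase that completes selectin ligands on PSGL-1, named here after its values had been seen, stood at 3.54 ± 0.0675 CPM in the marrow and 2.06 ± 0.498 CPM in the spleen (SD, n = 4 each; adjusted p of 0.119 in edgeR). Fut7 had only 372 expected counts over the 8 libraries together, so that its small SD in the marrow is no measure of precision.

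Among membrane linkers and sialomucins, 1 of 9 tested passed. Ptprc, which encodes CD45, fell from 2564 ± 211 to 1909 ± 133 CPM (SD, n = 4 each; log2 fold change -0.43, adjusted p of 0.0244 in edgeR), a call found in 3 of 8 leave-one-out fits and not with batch as a term. The linker genes Msn and Ezr and the sialomucin gene Spn were at log2 fold changes of -0.02, -0.13 and -0.30. Of 10 transcription factors of trafficking genes, Satb1, an organizer of chromatin in T cells, fell from 410 ± 99.8 CPM in the spleen to 197 ± 16.8 CPM in the marrow (SD, n = 4 each; log2 fold change -1.06, adjusted p of 0.0012 in edgeR). It was called without each library in turn, and at an adjusted p of 0.0598 with batch as a term. Foxo1, which drives Ccr7 and Klf2, Hif1a and Prdm1 were at log2 fold changes of 0.07, -0.37 and 0.00, none of which passed.

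**Figure D5:**
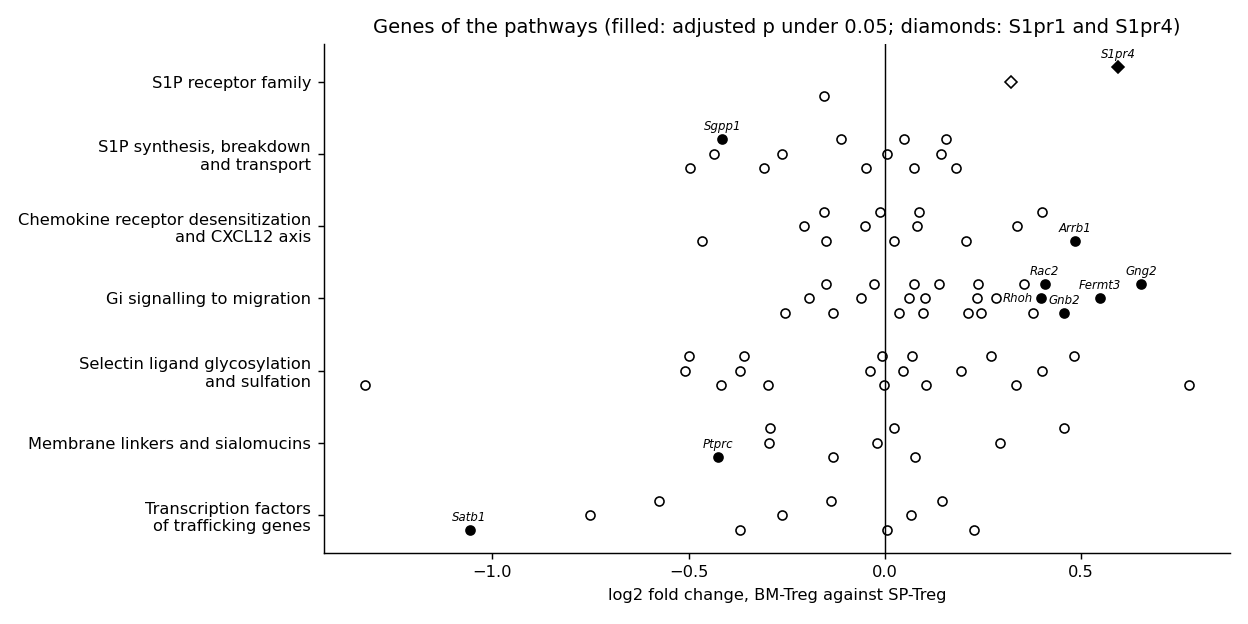
Log2 fold change, BM-Treg against SP-Treg (horizontal axis), of each tested gene in the 7 pathway lists (rows), with S1pr1 and S1pr4 as diamonds in the first. Filled points had an adjusted p under 0.05 in edgeR, and are on the right of 0 for all 5 in Gi signalling, for Arrb1 and for S1pr4.

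For each of the 7 genes, the 2 of 6664 genes with the most similar pattern were found by Pearson's r of log2 CPM over the 8 libraries, which share the difference between tissues and their batches, so that r is a description only. They were Cdc42ep3 and Axin2 for S1pr4 (r of 0.99 each), Btf3l4 and Lrrc32 for Ccr7 (0.98 and 0.97), Rnf166 and H3f3b for Selplg (0.97 and 0.96), and Cd47 and Farp1 for S1pr1 (0.96 each). They were Aplp2 and Klf10 for Cxcr4 (0.98 and 0.97), D8Ertd738e and Tuba4a for Cd69 (0.96 each), and Ube2d3 and Pxk for Cd44 (0.98 and 0.96). The log2 fold changes were 1.08 for Cdc42ep3, which encodes an effector of CDC42, and 0.76 for Axin2, and they were -0.36 for Btf3l4 and -1.34 for Lrrc32, which encodes the Treg surface protein GARP. As these genes were picked for the pattern of S1pr4 and Ccr7 in the same libraries, no test is given.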

How the data were processed

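NuGEN's single primer isothermal amplification was applied to 15 ng of RNA, without molecular identifiers, before single-end sequencing (80 nt). Expected counts and FPKM values were deposited per gene and per transcript, with no normalization between libraries for the counts, while FPKM divides by length and depth. Whether genes were counted by strand is not given in the sources used here, nor is the annotation release. The submitters' processing notes name cutadapt 1.9, STAR 2.5.2a, RSEM 1.2.30 and GRCm38. Each of the 8 columns was matched by name.

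Counts were rounded, filtered with filterByExpr, scaled by TMM and tested with edgeR 4.0.16 (quasi-likelihood, robust, no covariate, R 4.3.3) with Benjamini-Hochberg adjustment over 13397 genes and a threshold of 0.05. SE is the absolute log2 fold change over the root of F, and 95% intervals use the degrees of freedom behind each p. Log2 CPM used a prior count of 2. Ratios and transcript shares (10 to 90% of genes with a mean of at least 50 expected counts) were compared by exact permutation over 70 groupings with scipy 1.17.1. The tests were tried on simulated data. Counting error is small beside the spread between libraries, and no pair of libraries was a duplicate. Alternatives were DESeq2's size factors, DESeq2 1.42.0, limma 3.58.1 (voom, and trend on log2 of FPKM plus 1 or 0.1), other filters, a batch term, a replicate block, batch 3 alone and each library left out.

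The members and lists were chosen with earlier results of these data known. Of 158 list entries, 156 matched the tables, 13 through RefSeq synonyms. In each pathway list every gene called was named, with values for at most 4, and at most 3 uncalled genes of the highest mean. The 2 most similar genes per member were taken among genes of mean log2 CPM of at least 4. The legend of the heatmap gives fewer replicates per tissue than the methods, and all 8 libraries were used.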

Additional observations from a re-analysis of the deposited data

Results flagged for a closer look

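Cd44-207 made up 27.2% of the Cd44 expected counts in BM-Treg replicate 4, against 24.7 to 25.0% in BM-Treg replicates 1 to 3. The gap to the nearest library was 0.875 of the range of the group, more than Dixon's 95% critical value allows for 4 values. This was the only value that stood apart among 30 groups of 4 libraries looked at, and chance flags about 1 in 20 groups. BM-Treg replicate 4 was also the marrow library of batch 3.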

How the results depend on the processing

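The 2 calls among the 7 genes became 1, S1pr4 or Selplg, in 3 fits (with batch as a term, and without BM-Treg replicate 2 or 3), and the range over the fits that left out 1 library was 1 to 3. Of the 89 pathway genes tested, the 9 calls became 14 with DESeq2, 5 with limma-trend on log2(FPKM + 1) or log2(FPKM + 0.1), and 3 with batch as a term, and they ranged from 3 to 9 without each library in turn, with 3 without BM-Treg replicate 2 and 5 without BM-Treg replicate 3 or 4. The log2 ratio of Cxcr4 to S1pr1 ranged from -0.50 to -0.08, that of Cd69 to S1pr1 from -0.39 to -0.14, and that of Cd44 to Ccr7 from 0.95 to 1.45 (BM-Treg minus SP-Treg), without each library in turn. With 3 libraries against 4 the smallest p is 0.0571, so that these are values without a test. The count of Cxcr4 and Cd44 transcripts without overlap, 0 with all libraries, was 2 without SP-Treg replicate 1 and 0 without any other library. Both were transcripts of Cxcr4, whose shares make up the whole gene, so that they are 1 difference. It rested on a Cxcr4-201 share of 63.5% in BM-Treg replicate 3 against 63.0% in SP-Treg replicate 4. In that setting, 7.74% of transcripts over all genes had shares that did not overlap.

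Replicate numbers are shared by the tissues, and the deviations of libraries with the same number correlated at -0.18 to 0.06. For replicates 2 and 4 this was above all values with another number, and for replicates 1 and 3 below them. For replicates 1 to 3 the sexes differ between the tissues, so that libraries of these numbers were not from the same mice. For replicate 4 the labels leave this open, and with so few libraries the correlations cannot decide it. The replicate block is thus a check on the numbering and not a pairing of mice. With the replicate block, 3 of the 7 genes and 7 pathway genes were called, and Cxcr4 turned to 0.016. The ratios kept their values with the block, at exact sign-flip p of 0.750, 0.125 and 0.125, of which 0.125 is the smallest possible.

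Cxcr4 turned to a positive log2 fold change with limma-voom (0.021) and limma-trend on log2(FPKM + 1) and log2(FPKM + 0.1) (0.017 and 0.018), and ranged from -0.22 to 0.26 without each library in turn, positive without BM-Treg replicate 1, BM-Treg replicate 4 or SP-Treg replicate 1. Cd69 ranged from -0.076 to 0.13, negative without BM-Treg replicate 4 or SP-Treg replicate 2, and Cd44 from -0.0052 to 0.13, negative without SP-Treg replicate 4. None of these was called. Genome-wide, 258 genes were called with batch as a term, 1703 with DESeq2 and 690 to 1048 without each library in turn, against 1172. With limma-trend on FPKM the split turned from 499 higher and 673 lower to 482 and 283 (log2(FPKM + 1)) or 454 and 274 (log2(FPKM + 0.1)). The causes were not tested.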
